A study of Homo sapiens with 16 samples.

Results

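The genes described here are 35 members of the amino acid stress response that is driven by the transcription factor ATF4. They were chosen by name, from the factor itself and its partners, its feedback genes, the enzymes that make asparagine, serine, glycine and other amino acids, and the transporters that bring amino acids into the cell. All 35 were found among the 57820 genes of the count table, and 34 had enough reads to be tested across the libraries. RNA-seq reads were counted per gene in 16 libraries of Jurkat and HSB-2, established cell lines of T-cell acute lymphoblastic leukemia (T-ALL) that are both labelled as TAL1+. For each line, 2 libraries came from wild-type cells, 2 from cells with a scrambled control, 2 from cells with USP7 shRNA-4057 and 2 from cells with USP7 shRNA-4058. The control is named as a scrambled siRNA in the sample labels but as an shRNA in the series' design text, so its kind is uncertain. USP7 is a deubiquitinating enzyme that is mutated in T-ALL, and the comparison asks what its partial loss does to transcription in these lines. Per the study's methods, the hairpins target different exons of USP7 and were delivered by lentivirus, with transduced cells sorted for GFP or selected with puromycin. Which of these was used for which library, and whether replicates were separate cultures, is not stated, so the p-values measure only the spread between these libraries, which may be technical. In bulk libraries such as these, fewer cells of a type and less RNA per cell cannot be told apart.

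When amino acids run short or unfolded protein accumulates in the endoplasmic reticulum (ER), kinases phosphorylate the translation factor eIF2. Most translation then slows, while the ATF4 mRNA is translated more efficiently, so that ATF4 protein can rise without a change in its transcript. ATF4 binds DNA as a dimer with C/EBP family proteins and other partners at composite elements and switches on amino acid synthesis, amino acid import and its own feedback inhibitors. In T-lineage leukemia the pathway is best known through asparagine synthetase, since asparaginase treatment deprives these cells of asparagine. The measurements here are of transcripts, and no protein level was measured.

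The libraries held between 76.6 and 235 M counts (M, mega) each. A count of 0 allows up to 3 counts, which is 0.0127 to 0.0392 CPM (counts scaled to the library total), counting error only. USP7 itself was lower in each shRNA library than in each control library of its line. In Jurkat it was at 396 and 386 CPM in wild-type, 384 and 387 in scrambled, 140 and 145 in shRNA-4057 and 244 and 242 in shRNA-4058 libraries. In HSB-2 the same groups had 237 and 243, 227 and 220, 144 and 149, and 162 and 156 CPM. The hairpins thus left different amounts of USP7 transcript in Jurkat, with a log2 fold change of -0.77 ± 0.035 (SE) for shRNA-4057 against shRNA-4058, and closer amounts in HSB-2, where it was -0.12 ± 0.035. All 10 T-lineage markers were over 1 CPM in each group except HSB-2 scrambled, where 9 were, and CD2 was low throughout HSB-2 (0.785 to 4.96 CPM). The summed level of the 6 B-cell markers was 22.1 to 65.2 CPM in Jurkat, nearly all from CD79A and highest in scrambled cells, and 1.17 to 4.61 CPM in HSB-2. Sums of 6 myeloid and 5 erythroid markers stayed at or under 0.932 and 1.91 CPM.

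To show where ATF4-type sequence lies in these genes, the window from 250 bases before to 50 bases after each gene's start in RefSeq (GRCh38.p14) was searched on both strands for TGATGNAA, the core of the C/EBP-ATF response element, and for TGACGTCA, the cyclic AMP response element. Of the 35 members, 27 had a window. TGATGNAA was present in 5 of these 27 (18.5%) and in 3.67% of all 27305 promoter windows. TGACGTCA was present in 0 of 27 and in 1.98% of all windows, so no overlap of the motifs occurred among the members. The matches were in ATF3, CHAC1 and ASNS before the start, and in SLC7A1 (TGATGAAA, 7 bases after the start) and SLC3A2 (TTACATCA on the other strand, 37 bases after). The 3 upstream windows, of ATF3, CHAC1 and ASNS, are shown because they hold a match before the start, and capitals mark the match. Counted from the start, the match in ATF3 lay at base -191, that in CHAC1 at base -209 on the other strand, and that in ASNS at base -68. A match of letters is a description of the sequence and not a measured binding site.
ATF3, chr1:212565157-212565406, plus strand: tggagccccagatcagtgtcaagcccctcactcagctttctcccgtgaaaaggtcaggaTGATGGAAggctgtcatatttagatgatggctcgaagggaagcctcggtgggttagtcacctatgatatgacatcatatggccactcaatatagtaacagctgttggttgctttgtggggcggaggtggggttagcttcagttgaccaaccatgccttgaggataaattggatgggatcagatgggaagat
CHAC1, chr15:40953221-40953470, plus strand: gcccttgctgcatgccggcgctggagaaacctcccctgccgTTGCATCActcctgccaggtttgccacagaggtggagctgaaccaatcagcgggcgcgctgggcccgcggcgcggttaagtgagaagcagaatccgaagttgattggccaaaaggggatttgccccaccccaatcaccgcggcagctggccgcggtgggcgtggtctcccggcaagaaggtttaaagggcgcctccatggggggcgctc
ASNS, chr7:97872409-97872658, minus strand: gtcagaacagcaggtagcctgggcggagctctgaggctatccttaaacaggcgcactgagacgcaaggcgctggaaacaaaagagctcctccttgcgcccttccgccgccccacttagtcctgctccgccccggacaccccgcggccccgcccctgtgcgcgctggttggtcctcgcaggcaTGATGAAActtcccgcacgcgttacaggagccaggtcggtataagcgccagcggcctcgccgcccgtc

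Before any shRNA, the pathway was expressed at a higher level in HSB-2 than in Jurkat. Of the 34 members tested, 27 were higher in HSB-2 wild-type than in Jurkat wild-type cells and 3 were lower, where 33.5% of all genes tested were called higher and 34.6% lower (edgeR quasi-likelihood test, adjusted p under 0.05). The median log2 difference of the members was 1.05. SLC1A4, which carries serine and alanine, was at 53.2 and 52.3 CPM in Jurkat and at 255 and 252 CPM in HSB-2, a log2 difference of 2.27 ± 0.036. CHAC1 (2.00 ± 0.081), SLC43A2 (1.89 ± 0.075), SESN2 (1.79 ± 0.052), GPT2 (1.71 ± 0.055), TRIB3 (1.66 ± 0.056) and PCK2 (1.64 ± 0.048) followed. The lower members were ALDH1L2, CTH and ALDH18A1. STC2, PSAT1, PYCR1 and XPOT were not called. Per kilobase of exon, ATF4 had the highest level in both lines, at 162 CPM per kb in Jurkat wild-type and 218 in HSB-2 wild-type, ahead of SLC7A5 at 61.0 and 129. NUPR1, a stress-induced chromatin protein, was at or near the counting floor, at 0 to 0.0556 CPM over all libraries, and was not tested. ALDH1L2, a mitochondrial folate enzyme, reached at most 0.257 CPM and was tested in Jurkat but was too low for the separate fits of HSB-2.

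**Figure D1:**
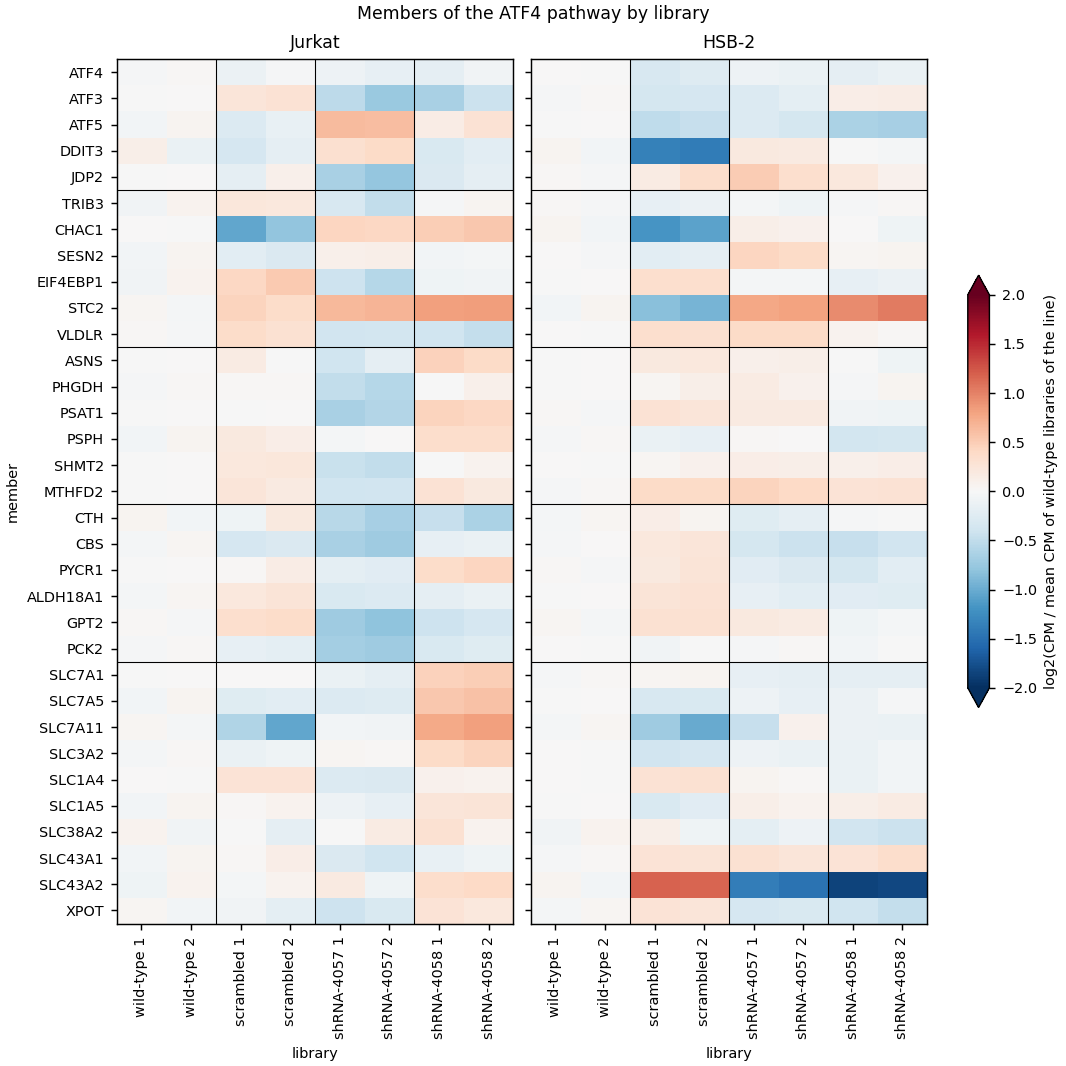
Level of 33 members (rows, grouped by role with black lines) in each library (columns), as log2 of CPM over the mean CPM of the wild-type libraries of the same line; NUPR1 and ALDH1L2 are left out as too low. In Jurkat most enzymes and transporters are below wild-type with shRNA-4057 and several are above it with shRNA-4058, while in HSB-2 SLC43A2 is above wild-type in scrambled cells and below it with both hairpins, DDIT3, CHAC1, STC2 and SLC7A11 are below it in scrambled cells, and STC2 is above it with both hairpins.

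When both hairpins were pooled and set against scrambled cells, the members moved in both directions in each line, as the plot of levels by library shows. In Jurkat, 5 of 34 rose, where 12.4% of all genes did, and 6 fell, where 15.7% did. CHAC1, SLC7A11, ATF5, STC2 and SESN2 rose, and ATF3, GPT2, EIF4EBP1, VLDLR, CTH and ALDH18A1 fell. Leaving out either scrambled library lowered the count of 11 members. It also lowered the count over all genes, with 1 scrambled library then remaining. In HSB-2, 9 of 33 rose (20.3% of all genes) and 9 fell (17.8%). ATF4, DDIT3, CHAC1, SESN2, STC2, SLC7A5, SLC7A11, SLC3A2 and SLC1A5 rose, and EIF4EBP1, CBS, PYCR1, ALDH18A1, SLC7A1, SLC1A4, SLC38A2, SLC43A2 and XPOT fell. With an offset for GC content and gene length, 5 rose and 10 fell in HSB-2, and 7902 genes were called over all genes in place of 8049. The median log2 fold change of the members was 0.03 in Jurkat and 0.001 in HSB-2, beside 0.02 and -0.02 over all genes tested. The members thus had no common direction in either line. The calls that survived each alternative processing were those of ATF3, CHAC1 and VLDLR in Jurkat, and in HSB-2 those of DDIT3, CHAC1, EIF4EBP1, STC2, CBS, PYCR1, ALDH18A1, SLC1A4, SLC1A5, SLC43A2 and XPOT. None of these alternatives replaced the scrambled control. Against HSB-2 wild-type cells, DDIT3 and CHAC1 were not called with either hairpin. STC2, CBS, PYCR1, ALDH18A1, SLC43A2 and XPOT were called there with both, in the same direction. Mean SLC1A4 was 260.7 and 237.6 CPM with shRNA-4057 and shRNA-4058, beside 253.6 in wild-type and 311.4 in scrambled cells. In the same order, SLC1A5 had means of 271 and 280.5 beside 254 and 210.9 CPM. EIF4EBP1 had 34.48 and 32.11 beside 35.37 and 44.68 CPM.

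Against all 4 control libraries of a line, 4 of 34 members rose in Jurkat (12.5% of all genes) and 6 fell (14.1%), and in HSB-2 3 of 33 rose (15.6%) and 8 fell (15%). In Jurkat, ATF5, CHAC1 and STC2 rose with each alternative, SLC3A2 lost its call under some, and ATF3, VLDLR, CTH and GPT2 fell with each, unlike EIF4EBP1 and ALDH18A1. In HSB-2, STC2 rose with each alternative and CBS, PYCR1, ALDH18A1, SLC7A1, SLC43A2 and XPOT fell with each. The HSB-2 count of 11 became 7 without scrambled replicate 1, where the count over all genes went from 6176 to 4661. With the GC and length offset 1 member rose and 7 fell, and 6080 genes were called over all genes. As a description without a test, 3 members had all 4 shRNA libraries above all 4 control libraries in Jurkat and 7 had them all below, where 11.5% and 17% of all genes did. In HSB-2, 4 lay above and 8 below, where 15.6% and 15.3% of all genes did. After the GC and length offset these counts were 5 and 5 in Jurkat and 1 and 8 in HSB-2, with no matching share of all genes computed. STC2 lay above and ALDH18A1 lay below in both lines.

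The hairpins differed most in Jurkat. There, 24 of 34 members were lower with shRNA-4057 than with shRNA-4058 and 3 were higher, where 16.2% of all genes were called lower and 17.7% higher. The median log2 fold change was -0.38 over the members and 0.01 over all genes tested. PSAT1 (-1.05 ± 0.038), SLC7A11 (-0.85 ± 0.15), SLC7A5 (-0.82 ± 0.037) and ASNS (-0.71 ± 0.067) had the lowest values, and ATF5, DDIT3 and SESN2 were the 3 members higher with shRNA-4057. The total of 27 calls did not move by more than 1.5 times under any alternative, and 22 of the 27 kept their call under each of them. USP7 was also lower with shRNA-4057 in Jurkat, and its part in this difference was not tested. In HSB-2, 10 members were higher with shRNA-4057 and 2 were lower, where 10.5% and 14.3% of all genes were, and the median was 0.11 over the members and 0.00 over all genes. An offset for GC content and gene length raised the count of members called in HSB-2 from 12 to 27, without a matching share of all genes given here. The difference between the hairpins itself differed between the lines when tested directly. In the difference of differences, HSB-2 minus Jurkat, 25 of 34 members were called higher and 2 lower, where 12.1% and 15.6% of all genes were, and the median was 0.50 over the members beside -0.01 over all genes. This last comparison was added after the Jurkat values had been seen. PSAT1 (1.31 ± 0.054), ASNS (0.87 ± 0.093) and SLC7A11 (0.83 ± 0.21) had the highest values, and ATF3 and DDIT3 were the lower 2.

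**Figure D2:**
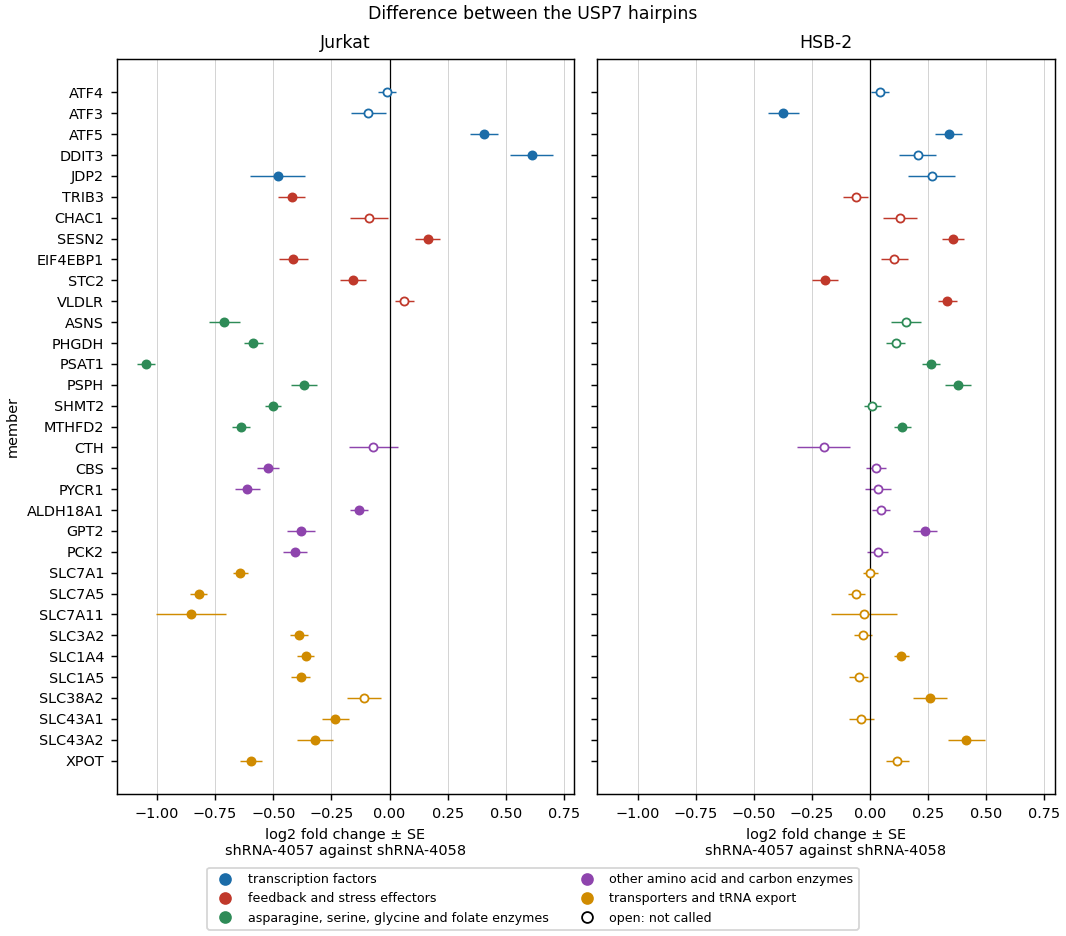
Log2 fold change of shRNA-4057 against shRNA-4058 for 33 members (rows, coloured by role) in Jurkat (left) and HSB-2 (right), with bars of 1 SE from the fit of 16 libraries; filled points were called at adjusted p under 0.05. In Jurkat nearly all enzymes and transporters lie left of 0, with PSAT1 at -1.05, and in HSB-2 most lie between -0.2 and 0.4.

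Set against scrambled cells one at a time, the Jurkat hairpins gave different counts. With shRNA-4057, 7 of 34 members were higher (22.7% of all genes) and 22 were lower (27.3%). With shRNA-4058, 17 were higher (19.7%) and 10 were lower (26.7%). Both comparisons share the scrambled libraries. Against wild-type cells instead, 4 were higher (15.4%) and 23 lower (21.2%) with shRNA-4057, and 15 were higher (13.9%) and 9 lower (21.9%) with shRNA-4058. The difference between the hairpins is the same whichever control is subtracted. In HSB-2, shRNA-4057 gave 11 higher (21.9%) and 10 lower (21.7%) against scrambled cells, and shRNA-4058 gave 11 higher (26.6%) and 16 lower (26.2%). Against HSB-2 wild-type cells, 10 were higher (16%) and 11 lower (15.7%) with shRNA-4057, and 5 were higher (23%) and 12 lower (21.1%) with shRNA-4058. The GC and length offset moved the split of higher and lower members to 21 and 7 for Jurkat shRNA-4058 against scrambled cells and 20 and 6 against wild-type cells. In HSB-2 it moved the split to 7 and 13 for shRNA-4057 and 7 and 22 for shRNA-4058 against scrambled cells. Against wild-type cells it moved to 4 and 19 for HSB-2 shRNA-4058, where DESeq2 gave 7 and 10. Against scrambled cells, the offset also moved the count over all genes from 10718 to 10997 for Jurkat shRNA-4058. In HSB-2 that count went from 10046 to 10458 for shRNA-4057 and from 12177 to 12040 for shRNA-4058.

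The controls of a line also differed from each other in these genes. In Jurkat, 11 members were higher in scrambled than in wild-type cells (14.8% of all genes) and 9 were lower (11%). In HSB-2, 14 were higher (16.1%) and 13 were lower (17.9%), or 18 and 10 with the GC and length offset. The members that differed most in HSB-2 were DDIT3 (log2 fold change -1.38 ± 0.082), CHAC1 (-1.13 ± 0.072), STC2 (-0.87 ± 0.059) and SLC7A11 (-0.85 ± 0.14) below wild-type, and SLC43A2 (1.17 ± 0.066) above it. In Jurkat they were CHAC1 (-0.90 ± 0.10) and SLC7A11 (-0.81 ± 0.18) below it and EIF4EBP1 (0.48 ± 0.062) above it. For these members, the size of an shRNA effect, and for some its call, changed with the control.

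The effect of the hairpins differed between the lines for 13 of 34 members in the test of line by shRNA, with 8 higher in HSB-2 than in Jurkat (20.6% of all genes) and 5 lower (17.1%). Both counts were near the share of all genes. Only VLDLR and SLC43A2 kept the call of a line difference under each alternative. The count was 8 and 6 without Jurkat scrambled replicates 1 and 2, 6 and 7 without HSB-2 scrambled replicates 1 and 2, and 7 with wild-type in place of scrambled cells. With the GC and length offset, 4 were higher and 7 lower, and the median of all genes shifted to -0.11.

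Among the transcription factors, the transcript of ATF4 itself was nearly level. ATF4 (ENSG00000128272.10) is a gene of chromosome 22 (39915700 to 39918688, plus strand, GRCh37). In Jurkat it was at 414 and 432 CPM in wild-type, 391 and 417 in scrambled, 393 and 379 in shRNA-4057 and 374 and 403 in shRNA-4058 libraries. In HSB-2 the same groups had 574 and 563, 456 and 476, 529 and 517, and 500 and 516 CPM. The shRNA libraries overlapped the controls in Jurkat and lay between scrambled and wild-type cells in HSB-2. Against wild-type cells, both hairpins were lower in each line, with log2 fold changes of -0.13 ± 0.039 and -0.12 ± 0.039 in Jurkat and -0.12 ± 0.039 and -0.16 ± 0.039 in HSB-2. The pooled log2 fold change against scrambled cells was -0.04 ± 0.057 in Jurkat and 0.15 ± 0.051 in HSB-2 (adjusted p 0.0429), a call that was lost without either scrambled library, without shRNA-4057 replicate 1 and without shRNA-4058 replicate 2. With an offset for GC content and gene length the HSB-2 value was -0.04. Reads of ATF4 pseudogenes reached at most 1.61 CPM.

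ATF3, a stress-induced member of the same family, fell in Jurkat with both hairpins. ATF3 (ENSG00000162772.12, chromosome 1, 212738676 to 212794119, plus strand) was at 12.1 and 12.2 CPM in Jurkat wild-type, 14.3 and 14.9 in scrambled, 8.45 and 7.29 in shRNA-4057 and 7.74 and 9.07 in shRNA-4058 libraries. Each shRNA library was below each control, and the pooled log2 fold change against scrambled cells was -0.82 ± 0.11 (adjusted p 0.00178). In HSB-2 the groups had 30.0 and 31.0, 23.9 and 24.1, 25.3 and 26.5, and 33.3 and 33.8 CPM in the same order. There the groups overlapped, and only shRNA-4058 was called against scrambled cells (0.48 ± 0.065), as wild-type cells were also above scrambled cells. The effect differed between the lines by 1.16 ± 0.18 (adjusted p 0.000257), and by 0.55 when wild-type took the place of scrambled cells (adjusted p 0.0537).

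DDIT3 (CHOP; ENSG00000175197.6, chromosome 12, 57910371 to 57915520, minus strand), which links prolonged stress to cell death, was a member whose HSB-2 result turned on the control, as those of CHAC1 and SLC7A11 also did. It was at 13.4 and 12.3 CPM in HSB-2 wild-type, 5.05 and 4.88 in scrambled, 14.7 and 14.5 in shRNA-4057 and 12.8 and 12.5 in shRNA-4058 libraries. Scrambled cells stood apart from the other 3 groups, which were close to each other. The log2 fold change with both hairpins was 1.46 ± 0.10 against scrambled cells (adjusted p 1.38e-05), while against wild-type cells it was 0.18 ± 0.079 with shRNA-4057 and -0.02 ± 0.079 with shRNA-4058, neither called. In Jurkat the values were 4.77 and 4.03, 3.48 and 3.88, 5.49 and 5.77, and 3.55 and 3.81 CPM in the same order. The Jurkat shRNA-4057 libraries were above the others, and the log2 difference to shRNA-4058 was 0.61 ± 0.093. DDIT3 overlaps MARS1 and MBD6 on the other strand. The strand setting of the counting is not stated, so the counts of DDIT3 could be affected by this overlap.

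ATF5, another ATF4-induced factor, was higher in Jurkat with both hairpins than with either control, at 22.8 to 23.2 CPM with shRNA-4057 and 16.5 to 18.2 with shRNA-4058 beside 12.4 to 15.5 in controls. The pooled log2 fold change against scrambled cells was 0.66 ± 0.15 and lost its call without either scrambled library, and against both controls it was 0.57 ± 0.12. In HSB-2 it was lower with both hairpins than in wild-type cells (-0.31 ± 0.058 and -0.65 ± 0.059). The HSB-2 hairpins lay on either side of scrambled cells, with means of 28.06 CPM for shRNA-4057 and 22.16 for shRNA-4058 beside 24.82. The difference between these hairpins was called under each alternative. ATF5 overlaps NUP62 and IL4I1 in antisense. JDP2, a repressor of the same family, was lower in Jurkat with shRNA-4057 (-0.68 ± 0.12 against scrambled cells) and not called with shRNA-4058.

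Among the feedback and effector genes, CHAC1 was higher with both hairpins than with either control in Jurkat. CHAC1 (ENSG00000128965.7) degrades glutathione, and its upstream window holds the match that lies farthest from the start of the 3 printed. It lies on chromosome 15 from 41245160 to 41248710 on the plus strand of GRCh37. In Jurkat it was at 4.24 and 4.19 CPM in wild-type, 2.06 and 2.44 in scrambled, 5.70 and 5.64 in shRNA-4057 and 5.91 and 6.14 in shRNA-4058 libraries. All 4 shRNA libraries lay above all controls, but the scrambled libraries were also well below wild-type, so the log2 fold change was 1.33 ± 0.096 and 1.42 ± 0.095 for the hairpins against scrambled cells and 0.43 ± 0.087 and 0.52 ± 0.086 against wild-type cells. In HSB-2 the groups had 17.4 and 16.2, 7.40 and 8.01, 18.2 and 17.8, and 16.9 and 15.9 CPM. There scrambled cells alone were low, with 1.17 ± 0.088 for both hairpins against scrambled cells, and 0.09 ± 0.071 and -0.03 ± 0.071 for shRNA-4057 and shRNA-4058 against wild-type cells, neither called.

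STC2, a secreted glycoprotein induced by ER and amino acid stress, was the member that rose in both lines against both controls. STC2 (ENSG00000113739.6, chromosome 5, 172741726 to 172755450, minus strand) was at 17.3 and 16.5 CPM in Jurkat wild-type, 23.1 and 21.7 in scrambled, 26.5 and 27.1 in shRNA-4057 and 29.7 and 30.1 in shRNA-4058 libraries. In HSB-2 it was at 17.8 and 19.1, 10.3 and 9.73, 31.6 and 32.4, and 35.6 and 37.9 CPM. Each shRNA library was above each control of its line, and scrambled cells were above wild-type in Jurkat and below it in HSB-2. For shRNA-4057 and shRNA-4058 in HSB-2, the values were 1.67 ± 0.059 and 1.87 ± 0.059 on the log2 scale against scrambled cells and 0.80 ± 0.057 and 0.99 ± 0.057 against wild-type cells. In Jurkat they were 0.26 ± 0.058 and 0.42 ± 0.057 against scrambled cells and 0.67 ± 0.059 and 0.82 ± 0.058 against wild-type cells. The log2 fold change against both controls was 0.57 ± 0.11 in Jurkat (adjusted p 0.00558) and 1.27 ± 0.21 in HSB-2 (adjusted p 0.00236). The pooled Jurkat value against scrambled cells, 0.37 ± 0.085, lost its call without either scrambled library. Against scrambled cells the effect was larger in HSB-2 by 1.44 ± 0.13, and with wild-type in place of scrambled cells the difference between the lines was 0.16 and not called (adjusted p 0.440).

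**Figure D3:**
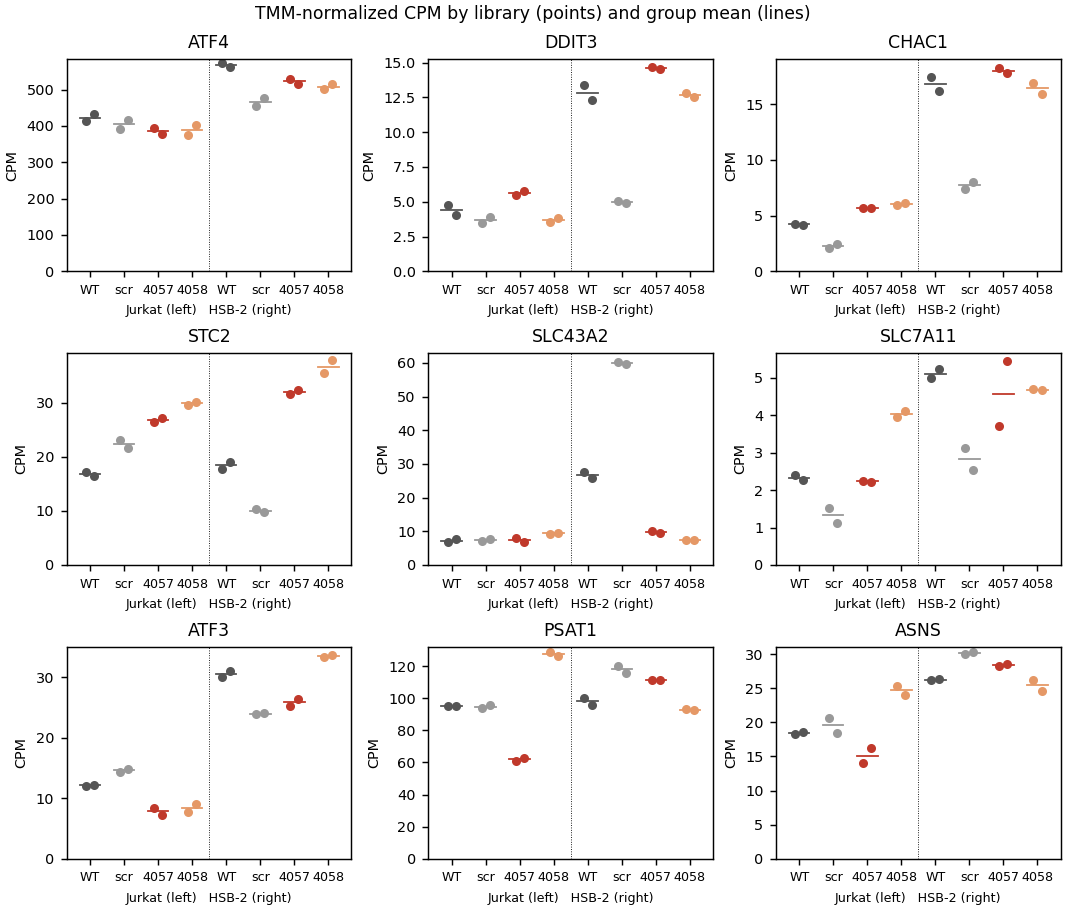
CPM of 9 members in each library (points) with group means (lines), for wild-type (WT), scrambled (scr), shRNA-4057 and shRNA-4058 cells of Jurkat (left of the dotted line) and HSB-2 (right), on linear axes from 0. STC2 is above both controls in both lines, SLC43A2 is below both controls in HSB-2 with scrambled cells at 60.3 and 59.6 CPM, and DDIT3 and CHAC1 in HSB-2 are low in scrambled cells alone.

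TRIB3 (chromosome 20, 343479 to 378203), the pseudokinase that inhibits ATF4 and DDIT3, was lower in Jurkat with shRNA-4057. It was at 25.9 and 28.8 CPM in Jurkat wild-type, 32.2 and 31.6 in scrambled, 22.0 and 19.4 in shRNA-4057 and 27.1 and 28.3 in shRNA-4058 libraries. HSB-2 libraries were at 87.4 and 84.7, 76.6 and 79.5, 83.8 and 81.0, and 84.7 and 87.5 CPM. The shRNA-4057 libraries were the lowest of Jurkat, with log2 fold changes of -0.62 ± 0.058 against scrambled and -0.40 ± 0.058 against wild-type cells, and the HSB-2 groups lay close together. SESN2, which signals leucine shortage to mTORC1, was above all controls in HSB-2 (49.0 to 64.1 against 41.0 to 48.2 CPM), with a call against both controls (0.33 ± 0.10) that was lost with the replicate block, with the GC and length offset, and without either scrambled or either shRNA-4057 library. EIF4EBP1, a repressor of translation, was lower than in scrambled cells with each hairpin in both lines, with log2 fold changes of -0.96 ± 0.063 and -0.55 ± 0.061 in Jurkat and -0.37 ± 0.057 and -0.48 ± 0.057 in HSB-2 for shRNA-4057 and shRNA-4058. Against Jurkat wild-type cells, the values were -0.49 ± 0.064 with shRNA-4057 and -0.07 ± 0.062, not called, with shRNA-4058. Against HSB-2 wild-type cells they were -0.04 ± 0.057, not called, and -0.14 ± 0.057 (adjusted p 0.0487). VLDLR, a lipoprotein receptor, fell in Jurkat with both hairpins, at 30.4 to 32.8 CPM beside 41.4 to 54.5 in controls (-0.71 ± 0.065 against scrambled cells), and the effect differed from that in HSB-2 by 0.64 ± 0.14.

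Of the roles, the enzymes of asparagine, serine, glycine and folate metabolism had the lowest median log2 fold change between the Jurkat hairpins (-0.585). Of these, 6 of 7 were lower with shRNA-4057 than with shRNA-4058, and the other, ALDH1L2, was near the floor. Among transporters and tRNA export, 9 of 10 were lower, with a median of -0.386, where 16.2% of all genes were lower. ASNS, asparagine synthetase (its match is the closest to the start of the 3 printed; chromosome 7, 97480989 to 97501854, minus strand), was at 18.4 and 18.6 CPM in Jurkat wild-type, 20.7 and 18.4 in scrambled, 14.0 and 16.2 in shRNA-4057 and 25.4 and 24.0 in shRNA-4058 libraries. It was thus below the controls with shRNA-4057 and above them with shRNA-4058, with log2 fold changes of -0.37 ± 0.068 and 0.34 ± 0.066 against scrambled cells. Its HSB-2 levels were 26.2 and 26.4, 30.0 and 30.3, 28.3 and 28.5, and 26.2 and 24.6 CPM. These were closer together, and the hairpins differed by 0.15 ± 0.065, not called.

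PSAT1, which carries out the transamination step of serine synthesis, had the widest split. PSAT1 (chromosome 9, 80912041 to 80945009, plus strand) was at 94.9 and 95.1 CPM in Jurkat wild-type, 94.0 and 95.7 in scrambled, 60.6 and 63.0 in shRNA-4057 and 129 and 126 in shRNA-4058 libraries. In HSB-2 its level was 99.96 and 95.99, 120 and 116, 112 and 111, and 93.1 and 92.5 CPM. The Jurkat controls were level, and the hairpins moved to either side of them, with log2 fold changes of -0.62 ± 0.038 and 0.43 ± 0.038 against scrambled cells. With both hairpins pooled, the Jurkat value was 0.02 ± 0.33 (adjusted p 0.963), so the pooled comparison did not show the change. In HSB-2, shRNA-4058 was lower than scrambled cells (-0.35 ± 0.037) and shRNA-4057 was not called. Against HSB-2 wild-type cells, shRNA-4057 was higher (0.18 ± 0.038) and shRNA-4058 was not called (-0.08 ± 0.038).

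PHGDH, the first enzyme of serine synthesis (chromosome 1, 120191034 to 120286841, plus strand), moved in Jurkat with shRNA-4057 and was not called with shRNA-4058. It was at 139 and 144 CPM in Jurkat wild-type, 143 and 143 in scrambled, 99.9 and 94.8 in shRNA-4057 and 141 and 151 in shRNA-4058 libraries. The shRNA-4057 libraries stood below the other 6, with log2 fold changes of -0.56 ± 0.042 against scrambled and -0.54 ± 0.042 against wild-type cells. In HSB-2 all 8 libraries lay between 244 and 276 CPM, and shRNA-4057 was called against wild-type cells (0.13 ± 0.041) and not against scrambled cells. PSPH, the last enzyme of the pathway, was higher with shRNA-4058 in Jurkat (0.19 ± 0.056 against scrambled cells), and its pseudogene PSPHP1 reached 5.39 CPM. SHMT2 and MTHFD2, the mitochondrial enzymes that pass the carbon of serine to folate, were lower with shRNA-4057 in Jurkat, with values of -0.68 ± 0.036 and -0.61 ± 0.037 against scrambled cells, and in HSB-2 SHMT2 had values of 0.07 and 0.06 and MTHFD2 values of 0.04 and -0.10 for shRNA-4057 and shRNA-4058 against scrambled cells. Against HSB-2 wild-type cells, both were higher with both hairpins, MTHFD2 by 0.42 ± 0.037 and 0.28 ± 0.037 and SHMT2 by 0.13 ± 0.035 and 0.12 ± 0.035.

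Of the other amino acid and carbon enzymes, 5 of 6 were lower with shRNA-4057 than with shRNA-4058 in Jurkat, and the exception was CTH. GPT2, mitochondrial alanine transaminase (chromosome 16, 46918274 to 46965201, plus strand), was at 12.3 and 11.99 CPM in Jurkat wild-type, 15.3 and 15.6 in scrambled, 7.43 and 6.94 in shRNA-4057 and 9.14 and 9.60 in shRNA-4058 libraries. It was below all controls with both hairpins, with a pooled log2 fold change of -0.87 ± 0.14 against scrambled cells (adjusted p 0.00448), a call lost without scrambled replicate 2. The HSB-2 groups had 40.9 and 38.8, 49.2 and 49.4, 45.4 and 44.6, and 37.5 and 38.9 CPM, where the groups overlapped. CTH, which makes cysteine from cystathionine (chromosome 1, 70876901 to 70905534, plus strand), was at 6.92 and 6.41 CPM in Jurkat wild-type, 6.25 and 7.64 in scrambled, 4.52 and 4.19 in shRNA-4057 and 4.84 and 4.31 in shRNA-4058 libraries. Both hairpins were below all controls, with a pooled log2 fold change of -0.57 ± 0.10 against both controls. HSB-2 cells had 3.76 and 3.95, 4.25 and 3.99, 3.24 and 3.40, and 3.80 and 3.85 CPM, and its pooled value of -0.20 ± 0.12 was not called.

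ALDH18A1, which starts proline synthesis from glutamate, was the enzyme that was lower in both lines. It was at 129 to 145 CPM with shRNA and 154 to 190 in the Jurkat controls, and at 98.8 to 104 with shRNA and 116 to 142 in the HSB-2 controls. The log2 fold change against both controls was -0.31 ± 0.079 in Jurkat, lost without either scrambled library, and -0.35 ± 0.075 in HSB-2. PYCR1, the last step of proline synthesis, fell in HSB-2 (-0.39 ± 0.073), and in Jurkat it was below scrambled cells with shRNA-4057 (-0.30 ± 0.055) and above them with shRNA-4058 (0.31 ± 0.054). CBS, which makes cystathionine, fell in HSB-2 with both hairpins, to 87.0 to 93.3 CPM beside 118 to 142 in controls (-0.52 ± 0.069). PCK2, mitochondrial phosphoenolpyruvate carboxykinase, was below all controls in Jurkat (12.5 to 17.1 against 17.7 to 20.7 CPM), with a pooled value of -0.34 ± 0.12 against both controls that was not called (adjusted p 0.0515).

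Among the transporters, SLC43A2 had the largest change of any member in HSB-2. SLC43A2 (LAT4; chromosome 17, 1472562 to 1532180, minus strand) carries leucine, phenylalanine and methionine. In HSB-2 the groups were at 27.6 and 25.7 CPM in wild-type, 60.3 and 59.6 in scrambled, 10.2 and 9.62 in shRNA-4057 and 7.38 and 7.52 in shRNA-4058 libraries. The shRNA libraries were below both controls, and the controls were themselves apart. The log2 fold change was -2.60 ± 0.073 and -3.01 ± 0.074 against scrambled cells, and -1.43 ± 0.073 and -1.84 ± 0.074 against wild-type cells. In Jurkat the groups had 6.85 and 7.62, 7.05 and 7.57, 8.15 and 6.82, and 9.25 and 9.50 CPM, where shRNA-4058 was higher than scrambled cells (0.36 ± 0.080) and shRNA-4057 was not called. The effect differed between the lines by -2.99 ± 0.21 (adjusted p 6.06e-07).

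SLC7A11, the cystine and glutamate exchanger (chromosome 4, 139085251 to 139163503, minus strand), was low in scrambled cells of both lines. It was at 2.40 and 2.27 CPM in Jurkat wild-type, 1.53 and 1.13 in scrambled, 2.25 and 2.22 in shRNA-4057 and 3.96 and 4.13 in shRNA-4058 libraries. In HSB-2 the libraries held 5.001 and 5.23, 3.12 and 2.54, 3.71 and 5.46, and 4.70 and 4.68 CPM, so that the shRNA-4057 libraries of HSB-2 were apart. With shRNA-4058, Jurkat cells were above both controls, by 1.60 ± 0.17 against scrambled and 0.79 ± 0.15 against wild-type cells. With shRNA-4057 they were above scrambled cells (0.75 ± 0.18) and near wild-type (-0.06 ± 0.16). In HSB-2 shRNA-4057 and shRNA-4058 were above scrambled cells (0.70 ± 0.14 and 0.73 ± 0.14), and against wild-type cells they had -0.15 ± 0.14 and -0.12 ± 0.14, neither called. SLC7A11 has an antisense transcript, SLC7A11-AS1.

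SLC7A5 and SLC3A2, the light and heavy chains of the LAT1 leucine transporter, were both higher in Jurkat with shRNA-4058 than with either control. SLC7A5 was at 421 and 434 CPM there, beside 281 and 300 in wild-type, 246 and 251 in scrambled and 240 and 244 in shRNA-4057 libraries. SLC3A2 was at 125 and 130 CPM with shRNA-4058 and at 86.4 to 97.9 in the other 3 groups. SLC7A1, the arginine carrier, was likewise higher with shRNA-4058 (294 and 301 CPM) than in the other Jurkat groups (188 to 215). The log2 fold changes of shRNA-4058 against scrambled cells were 0.78 ± 0.037, 0.53 ± 0.039 and 0.47 ± 0.032 in turn. Copies of SLC7A5 (SLC7A5P1 and SLC7A5P2) reached 5.96 CPM. In HSB-2, SLC7A1 fell with both hairpins (-0.20 ± 0.043 against both controls), and SLC7A5 was between its controls. XPOT, the exporter of tRNA from the nucleus, was lower with both hairpins in HSB-2, at 144 to 162 CPM beside 194 to 242 in controls (-0.51 ± 0.078), and in Jurkat it was below scrambled cells with shRNA-4057 (-0.23 ± 0.048) and above them with shRNA-4058 (0.37 ± 0.048). SLC1A4, SLC1A5, SLC38A2 and SLC43A1, carriers of small neutral amino acids, glutamine and leucine, had pooled log2 fold changes between -0.34 and 0.39 in both lines.

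The genes around these members were taken from lists of related genes, whose counts were not recomputed under the alternatives. In the comparison of the Jurkat hairpins, 18 of 20 cytosolic aminoacyl-tRNA synthetases, which charge tRNA with amino acids and include known ATF4 targets, were lower with shRNA-4057 and 0 were higher, with a median of -0.41, where 16.2% of all genes were lower and 17.7% higher. FARSB (-0.74), GARS1 (-0.63), YARS1 (-0.61) and AARS1 (-0.55) had the lowest log2 fold changes. Of 10 other amino acid transporters tested, all 10 were lower, among them SLC6A9, a glycine carrier (-1.43), and SLC7A8 (-0.90). Of 12 other serine, glycine and one-carbon enzymes, 7 were lower and 2 higher. The list of eIF2 kinases, phosphatase subunits and ATF4 partners had 9 of 15 lower and 1 higher, which was PPP1R15A (0.67), the stress-induced subunit that restores eIF2 activity. ER chaperones and the genes of the IRE1 and ATF6 arms had 10 of 20 lower and 2 higher with a median of -0.13, and 12 other ATF4 target genes had 3 lower and 3 higher with a median of -0.01. The share called lower was above that of all genes for each of these lists, the ER list included. For the other ATF4 target genes the share called higher was also above that of all genes, so that list had no single direction.

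**Figure D4:**
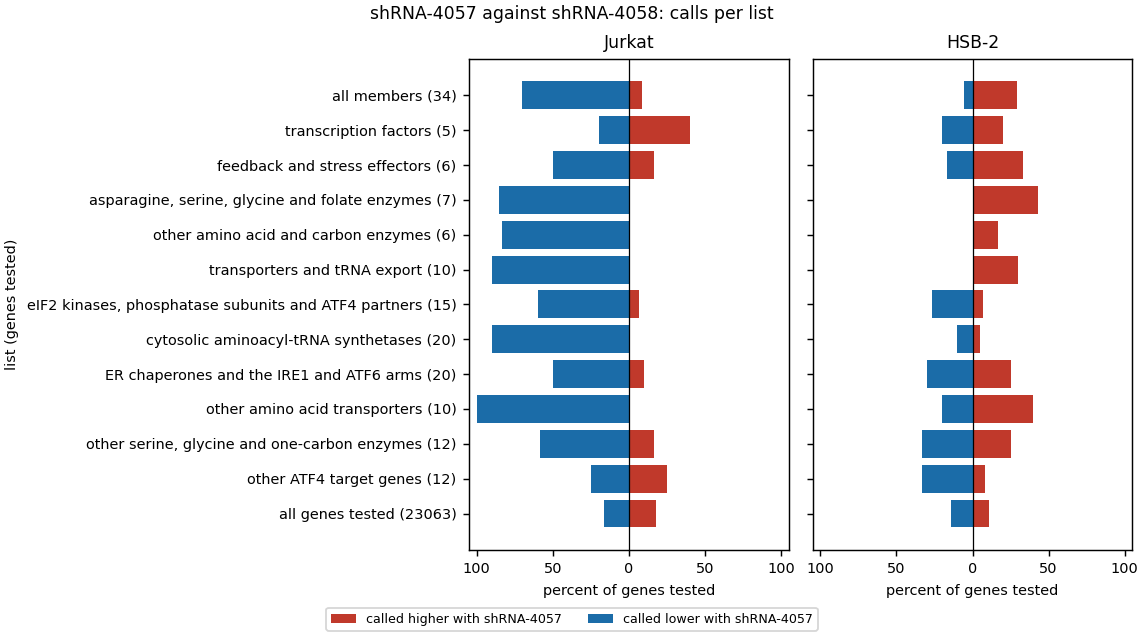
Share of the genes tested on each list (number in brackets) that were called lower (blue, to the left) or higher (red, to the right) with shRNA-4057 than with shRNA-4058, in Jurkat (left) and HSB-2 (right). In Jurkat 18 of 20 aminoacyl-tRNA synthetases and 10 of 10 other amino acid transporters are called lower, and in HSB-2 the same lists have 2 and 2 called lower.

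In HSB-2 the same comparison gave 2 lower and 1 higher of 20 synthetases, and 2 lower and 4 higher of 10 other transporters. There 14.3% of all genes were lower and 10.5% higher. The difference between the lines was called for 16 of 20 synthetases, 15 of them higher in HSB-2 minus Jurkat. Over all genes, 12.1% were called higher and 15.6% lower in this difference. With both hairpins pooled against scrambled cells, 0 of 20 synthetases rose and 3 fell in Jurkat, where 12.4% and 15.7% of all genes did. In HSB-2, 3 rose and 8 fell, where 20.3% and 17.8% did. Of 12 other ATF4 target genes in HSB-2, 7 were called higher and 2 lower against scrambled cells. Against both controls 5 were higher and 0 lower, where 15.6% and 15% of all genes were. These 5 were GDF15 (1.68), LAMP3 (0.97), GADD45A (0.83), SQSTM1 (0.33) and TNFRSF10B (0.30). In Jurkat the list had 0 of 11 higher and 4 lower against scrambled cells, LAMP3 among them (-0.88). Against both controls it had 0 higher and 2 lower, where 12.5% and 14.1% of all genes were. PPP1R15A rose in HSB-2 against both controls (0.72) and was not called in Jurkat (0.09). HSPA5, the main ER chaperone, rose in Jurkat (0.45 against both controls) and was not called in HSB-2 (-0.18), and XBP1, the factor spliced by IRE1, fell in both lines (-0.54 and -0.83).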

How the data were processed

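Total RNA of Jurkat and HSB-2 cells was depleted of ribosomal RNA and sequenced, per the labels. What the authors deposited are raw counts for each gene, which they made as follows. Reads were mapped to GRCh37 and counted with HTSeq 0.6.1p1, the processing notes also naming CASAVA, STAR and BWA. The strand setting and annotation release are not given in the sources used here. The table holds Ensembl gene IDs without symbols. Symbols, coordinates, GC content and exon length came from GENCODE release 44 lifted to GRCh37, and 96.1% of the 57820 IDs had a symbol.

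The raw counts went into edgeR 4.0.16 under R 4.3.3 (TMM with factors of 0.882 to 1.15, filterByExpr, quasi-likelihood F-test). Benjamini-Hochberg adjustment ran over all genes tested, and a gene is called at an adjusted p under 0.05. SE is the size of the log2 fold change divided by the square root of F. Both hairpins pooled were compared in a fit for each line. The biological coefficient of variation was 14.3% in Jurkat and 10.7% in HSB-2 against scrambled cells, and 14.6% and 16.3% against both controls. These fits took libraries of the same hairpin, and of the same kind of control, as independent. With only 2 hairpins, the p-values of the pooled fits may thus be too small. Single hairpins, controls and wild-type lines were compared in 1 fit of 16 libraries as 8 groups, whose error is the spread between replicates (4.2%). The line by shRNA term came from the 12 shRNA and scrambled libraries. CPM are TMM-normalized. Replicate libraries differed beyond counting noise (chi-square of 5.12 to 18.4 per degree of freedom), so none was counted as a duplicate.

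The members and lists were chosen with earlier results of these data known. Described library by library were ATF4, DDIT3, TRIB3, CHAC1, ASNS, PHGDH, PSAT1 and SLC7A11, and each member whose shRNA and control libraries of a line did not overlap and differed at least 1.5-fold in mean CPM. Alternatives were RLE scaling, DESeq2 1.42.0, other count filters, a replicate block, an offset for GC content and length, and leaving out each library. For the line by shRNA term alone, wild-type also took the place of scrambled cells, and each hairpin was matched between the lines. The procedure was tested on simulated counts.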

Additional observations from a re-analysis of the deposited data

Results flagged for a closer look

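In each of 13 members the effect of the pooled USP7 shRNA against scrambled cells differed between HSB-2 and Jurkat by the test of line by shRNA (edgeR, adjusted p under 0.05), and the values are log2, HSB-2 minus Jurkat. Of the 34 members tested, 8 were higher and 5 lower, where 20.6% and 17.1% of all genes tested were. Both counts were thus near the share of all genes. The median absolute log2 difference was 0.42 over the members and 0.589 over all genes. Those higher in HSB-2 were STC2 (1.44), ATF3 (1.16), DDIT3 (1.13), GPT2 (0.66), VLDLR (0.64), TRIB3 (0.51), SLC43A1 (0.33) and ATF4 (0.21). Those lower in HSB-2 were SLC43A2 (-2.99), XPOT (-0.73), ATF5 (-0.62), CBS (-0.55) and SLC38A2 (-0.50). For 7 of the 13 the pooled effects had opposite signs in Jurkat and HSB-2, which were ATF3 (-0.82 and 0.31), SLC38A2 (0.24 and -0.28), XPOT (0.13 and -0.63), SLC43A2 (0.23 and -2.79), TRIB3 (-0.37 and 0.11), ATF4 (-0.04 and 0.15) and SLC43A1 (-0.28 and 0.03). None of these 7 was called in both lines. ATF3 was called in Jurkat alone, SLC38A2, XPOT, SLC43A2 and ATF4 in HSB-2 alone, and TRIB3 and SLC43A1 in neither. For GPT2 and VLDLR the fall was larger in Jurkat (-0.87 and -0.71) than in HSB-2, where the values of -0.24 and -0.10 were not called. With wild-type in place of scrambled cells, the difference was 0.02 for DDIT3 (adjusted p 0.990) and 0.16 for STC2 (adjusted p 0.440), and scrambled cells differed from wild-type cells in both genes in HSB-2. SLC43A2 and VLDLR were called under each alternative.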

How the results depend on the processing

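Across 399 called values of single members, 4382 values were recomputed, of which 4019 kept their direction and call, 349 lost the call and 14 changed sign. All but 1 of the 14 arose with the offset for GC content and gene length, and 2 of these passed the threshold in the opposite direction, ATF4 (adjusted p 0.000209) and TRIB3 (adjusted p 0.000129) with HSB-2 shRNA-4058 against scrambled cells. Against scrambled cells they were ATF4 (-0.0373) and SLC7A5 (-0.004834) with pooled HSB-2 hairpins, PSPH (0.0102) with Jurkat shRNA-4057, TRIB3 (0.0125) with Jurkat shRNA-4058, and ATF4 (-0.11), TRIB3 (-0.16), SESN2 (-0.0402) and SLC7A5 (-0.0425) with HSB-2 shRNA-4058. The others were SLC1A5 (-0.006011) with HSB-2 shRNA-4058 against wild-type, TRIB3 (0.003528) in HSB-2 scrambled against wild-type cells, SESN2 (-0.006627) between the Jurkat hairpins, and the line differences of ATF4 (-0.16) and SLC43A1 (-0.0233). The exception was the line difference of ATF4 with wild-type in place of scrambled cells (-0.0075). For the counts of called members, leaving out 1 library gave 3 to 12 in pooled Jurkat against scrambled cells (11 as reported), 7 to 11 in HSB-2 against both controls (11) and 6 to 14 for the line difference (13). The line difference counted 7 with wild-type in place of scrambled cells, and 26 and 27 when shRNA-4057 and shRNA-4058 were matched between the lines in the fit of 16 libraries, whose error is smaller by construction. The GC and length offset gave 27 in place of 12 between the HSB-2 hairpins, without a matching share of all genes given here, and the cause was not tested. Replicate numbers are shared between groups. Over 28 pairs of groups, deviations of same-numbered libraries had correlations of -0.23 to 0.26, with a median of -0.024. Of these, 10 were over 0.1, so some groups shared part of their deviations, without a common direction over all pairs. The replicate block gave 7 in place of 11 in HSB-2 against both controls and changed no other count of called members by over 1.5 times. Where a left-out library leaves a group with 1, that library is assumed to vary like the others. In pooled Jurkat against scrambled cells, the count over all genes also fell without either scrambled library. Depth limited ALDH1L2 and NUPR1, which were at or near the counting floor.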
